A study of Mus musculus with 8 samples.

Results

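Cytosolic ribosomal proteins are the protein parts of the ribosomes that translate nuclear-encoded mRNA. The 86 genes described here were taken by symbol from a table of 25124 mouse genes. A symbol had to start with Rpl or Rps followed by a digit, or be Rpsa, Rplp0, Rplp1 or Rplp2, could not be a kinase of the Rps6k family or a symbol with the pseudogene mark -ps, and needed a mean of at least 0.5 FPKM over the 8 libraries. FPKM is the number of reads on a gene scaled by the length of its transcript and by the number of reads of the library. The symbols gave 51 genes of the large subunit and 35 of the small subunit, and 11700 genes in all reached the same minimum. Of the 89 symbols that the name takes, Rpl21 (mean 0.493 FPKM), Rpl3l (0.193 FPKM) and Rpl10l (listed at 0 in every library) fell below the minimum, and Rpl32l (0.667 FPKM), Rpl39l (0.701 FPKM) and Rpl29 (0.793 FPKM) stood just above it. One member, Rps19bp1, is taken by its name but codes for a protein that binds Rps19 and is no part of the ribosome.

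The cells were osteoclast precursors grown from mouse bone marrow. Osteoclasts are the cells that resorb bone, and they form from macrophage-like precursors under M-CSF, which keeps the precursors alive and dividing, and RANKL, which drives them to differentiate. The third agent was recombinant PRDX1, an antioxidant enzyme that was added to the medium. The labels give C57BL/6 mice of 6 to 8 weeks, whereas the study's methods name ICR mice for the cell cultures, and whether marrow was pooled is not given in the sources used here. Precursors were kept in 5 ng/mL M-CSF for 16 h and expanded for 3 days in 30 ng/mL. All 4 groups of 2 cultures then received 30 ng/mL M-CSF for 48 h: 1 group with nothing else (untreated below), 1 with 200 nM PRDX1, 1 with 100 ng/mL RANKL, and 1 with both. Nothing in the labels says that the 2 cultures of a group came from separate mice, so the p-values below measure the spread between cultures, which may be technical.

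A ribosome holds 1 copy of nearly every one of these proteins, and cells keep their mRNAs at similar high levels and change them together. Most of the mRNAs are known to begin with a C followed by a run of pyrimidines, the 5' terminal oligopyrimidine (TOP) motif. Through it the kinase mTORC1 and the protein LARP1 control their translation. Many of the genes carry small nucleolar RNAs (snoRNAs), guides of ribosomal RNA modification, within their introns.

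To show this start region, 30 bases around the RefSeq start of transcription (15 before it and 15 from it on, GRCm38.p6, which is the mm10 build of the table) are given for the members that the text names for the highest or lowest level or for a change against the others, where RefSeq places a start within 50 bases of that in the table. Rpl35 and Rpl13a were added after their sequences were seen, the first for its long run and the second for its response to RANKL. Capitals mark the longest run of C and T, which need not hold the first transcribed base and in Rpl39l lies wholly before it.

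Rps9 (chr7:3704026-3704055, plus strand): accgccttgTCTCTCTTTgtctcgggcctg
Rps23 (chr13:90923107-90923136, plus strand): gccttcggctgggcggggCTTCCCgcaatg
Rpl10 (chrX:74270801-74270830, plus strand): gttgttacagtggaagataggccgCCTata
Rpl22l1 (chr3:28805493-28805522, plus strand): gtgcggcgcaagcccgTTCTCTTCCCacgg
Rps2 (chr17:24720048-24720077, plus strand): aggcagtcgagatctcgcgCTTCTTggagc
Rpl7a (chr2:26910792-26910821, plus strand): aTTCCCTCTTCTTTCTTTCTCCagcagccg
Rpl32l (chr10:20208424-20208453, plus strand): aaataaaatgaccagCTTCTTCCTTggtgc
Rpl39l (chr16:10170213-10170242, plus strand): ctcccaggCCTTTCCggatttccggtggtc
Rpl35 (chr2:39005117-39005146, minus strand): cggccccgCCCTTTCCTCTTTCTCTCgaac
Rpl13a (chr7:45128731-45128760, minus strand): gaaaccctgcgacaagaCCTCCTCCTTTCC

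Such a start could be read for 64 of the 86 members and for 8876 of the genes tested. A run of at least 8 pyrimidines lay within the 30 bases in 27 of the 64 members (42.2%), against 12.2% of all genes, and the median longest run was 7 bases against 4. The first transcribed base was a C in 34.4% of the members and in 15.0% of all genes. A start at C inside a run of at least 5 pyrimidines was found in 14 members (21.9%) and in 5.21% of all genes. Over the 300 bases from 250 before to 50 after the start, searched on both strands, CCGGAAG (an ETS-family motif) was present in 37.5% of the members and 20.4% of all genes. The corresponding shares were 18.8% and 9.59% for GCCATNTT (a YY1 motif) and 10.9% and 7.04% for TATAAA. These are matches of letters in RefSeq sequence, and do not show where a factor binds or where transcription started in these cultures.

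Of the 86 members, 29 (33.7%) had at least 1 annotated snoRNA gene within their span, 56 snoRNA genes in all, against 2.20% of all genes tested. Their transcripts were short, with a median length of 705.5 bases against 2659 bases. In the comparison of RANKL with no RANKL in the absence of PRDX1, described below, the median log2 fold change was 0.48 for the 29 members with a snoRNA gene and 0.48 for the 57 without. It was 0.49 for the 27 with a long pyrimidine run and 0.46 for the 37 with a shorter one. For PRDX1 in the presence of RANKL the medians were -0.40 with and -0.39 without a snoRNA gene, and -0.39 with a long run and -0.40 with a shorter one. The splits were further apart, by up to 0.05, in the comparisons of PRDX1 without RANKL (-0.08 with a long run and -0.12 with a shorter one), RANKL with PRDX1 (0.21 and 0.17) and both agents against neither (0.13 and 0.08). A split by level was wider for PRDX1. In the presence of RANKL its median was -0.40 for the 73 members with a mean of at least 100 FPKM and -0.29 for the 13 others. Without RANKL the medians of these sets were -0.11 and -0.03. For RANKL without PRDX1 they were 0.49 and 0.48. No difference between these sets was tested.

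The members were among the most abundant mRNAs of the culture. Their median level was 465 FPKM against 11.2 FPKM for all genes tested, 73 of the 86 had a mean of at least 100 FPKM, and 36 of them were among the 100 genes of highest mean FPKM. In the large subunit the highest were Rplp1, a protein of the acidic stalk that recruits elongation factors (mean 1155 FPKM), Rpl10, which joins the subunit last (986 FPKM), and Rpl32 (983 FPKM). In the small subunit they were Rps9 (1244 FPKM), Rps29 (1002 FPKM) and Rps23 of the decoding centre (996 FPKM). Only 6 members were under 20 FPKM, namely Rpl32l, Rpl39l, Rpl29, Rps4l, Rps2 and Rpl7a. Rps2, Rpl29 and Rpl7a code for ordinary ribosomal proteins, yet they stood at 3.98, 0.793 and 12.9 FPKM. Their transcripts share 100-base stretches with 36, 27 and 37 other annotated genes, the largest numbers among the 83 members that could be matched to transcripts, and reads that fit several places can be lost in counting. Of Rpl10, one of the highest members, 91.6% of the 100-base windows also occurred in 10 other genes. The levels of Rps2, Rpl29 and Rpl7a and their differences are uncertain, and how far shared stretches set them was not tested.

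The libraries held 27284653 to 46171827 reads, of which 24542578 to 41712973 lay on genes, and within each group the 2 libraries differed by more than sampling noise. Markers of macrophages and osteoclast precursors, 8 of a list of 9 in the table, summed to 15297 to 17049 FPKM untreated or with PRDX1, 9768 to 10191 FPKM with RANKL and 13151 to 13544 FPKM with both. The 10 osteoclast markers summed to 44.8 and 45.4 FPKM untreated, 88.1 and 92.4 FPKM with PRDX1, 1884 and 1987 FPKM with RANKL, and 251 and 259 FPKM with both. T cell markers stayed under 1 FPKM with Cd3e at 0 in all 8 libraries, and erythroid markers stayed under 0.25 FPKM. Markers of 4 other cell types were higher in the 4 libraries with PRDX1 than in the 4 without it. The 7 neutrophil markers summed to 33.8 to 43.1 FPKM with PRDX1 and 8.14 to 16.4 without, the 6 stromal markers to 15.7 to 19.3 and 7.67 to 10.5, the 6 dendritic cell markers to 3.39 to 5.76 and 1.36 to 2.52, and the 5 B cell markers to 1.37 to 2.13 and 0.589 to 0.976.

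The first question was how much of the transcriptome the ribosomal protein mRNAs took in each group. They held 3.29% and 3.17% of the reads on genes in the untreated libraries, 2.97% and 2.97% with PRDX1, 4.66% and 4.60% with RANKL, and 3.52% and 3.42% with both. RANKL libraries were the highest and PRDX1 libraries the lowest, and no group overlapped another. The group means were 3.23% ± 0.0886, 2.97% ± 0.00190, 4.63% ± 0.0415 and 3.47% ± 0.0701 (SD, n = 2 each). Two-sided permutation of 2 against 2 libraries cannot give a p below 0.333, and no test of this order was run. The Wilson 95% intervals of the shares were 0.0111 to 0.0167 percentage points wide and cover counting error only.

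Both subunits took part. The large subunit held 1.86% of the reads untreated, 1.70% with PRDX1, 2.70% with RANKL and 2.01% with both, and the small subunit 1.37%, 1.27%, 1.93% and 1.46% (means of 2 libraries). The 10 most abundant genes of a library, none of them a member, took 4.75% and 4.84% of the reads with RANKL and 7.08% to 9.69% in the other libraries. With those genes left out of the total, the shares were 3.59% and 3.45% untreated, 3.29% and 3.28% with PRDX1, 4.89% and 4.83% with RANKL, and 3.79% and 3.68% with both, in the same order. The values are shares of the RNA of a culture, in which fewer cells of a type and less RNA per cell cannot be told apart. The macrophage and osteoclast markers above moved with RANKL and PRDX1 in the same cultures, and the neutrophil, stromal, dendritic cell and B cell markers with PRDX1, and their part in the shares and in the changes below was not tested.

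**Figure D1:**
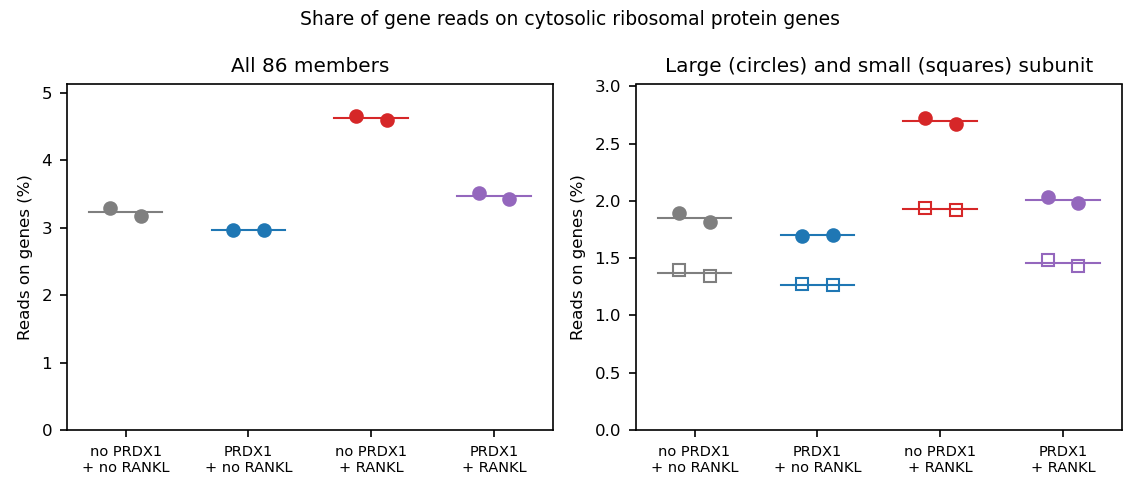
Percent of the reads on genes that lay on the 86 ribosomal protein genes (left) and on each subunit (right) in the 4 groups, with a point or square per library and a line at the group mean. RANKL libraries stood at 4.66% and 4.60%, above the 2.97% to 3.52% of the other libraries.

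The next comparison asked how RANKL without PRDX1 changed the members. Of the 86 members, 82 rose with RANKL and none fell at an adjusted p under 0.05 (limma, Benjamini-Hochberg over 11700 genes), where 37.0% of all genes rose and 22.9% fell. No member fell at an unadjusted p under 0.05 either, by limma or by limma-voom on recovered reads. The members' median log2 fold change was 0.48 (1.395-fold), that of all genes 0.10, and the quartiles of the members were 0.43 and 0.58. Fold changes here are on the scale of log2(FPKM + 1), which understates those of low genes. In 81 members both RANKL libraries lay above all 6 others, a pattern of 31.9% of all genes. The members outside it were Rpl17, Rpl29, Rpl39l, Rpl7a and Rps4l, of which Rpl17 was uneven between cultures and the others stood under 20 FPKM. Both RANKL libraries were above both untreated ones in 82 members and below them in none, where 47.7% and 30.2% of all genes were.

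Few of the rises were large. In each comparison members were also counted as past 1.5-fold only where the adjusted p was under 0.05 as well. By this count 18 members were past a 1.5-fold rise and none past a 1.5-fold decrease, against 11.8% and 9.96% of all genes, and the number of rises depended on the scaling of the libraries, falling to 4 under quantile normalization and 6 or 7 under the 3 other scalings, with medians of 0.35 to 0.41. Those scalings also moved the median of all genes, from 0.10 to 0.01 to 0.04, and the distance of the members from all genes ranged from 0.33 to 0.38. The medians of the subunits were 0.49 for the large and 0.48 for the small one.

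Rpl30, a protein of the large subunit (chr15:34440508-34443276, minus strand), had the largest rise on the log2(FPKM + 1) scale, which understates those of low members. It was at 155 and 153 FPKM untreated, 153 and 144 with PRDX1, 331 and 302 with RANKL, and 179 and 169 with both. The libraries with RANKL alone were the highest by far and those with both agents next, and RANKL alone gave 2.04-fold the untreated level (log2 1.03 ± 0.06 SE, adjusted p = 1.51e-07). The table row Gm12191 covers Rpl30 on the same strand, so that reads may be shared between them.

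Rpl13a (chr7:45125563-45128745, minus strand), a large subunit protein that also acts as a translational silencer in macrophages, had close replicates. It was at 470.4 and 477 FPKM untreated, 468 and 464 with PRDX1, 805 and 812 with RANKL, and 585 and 589.8 with both. RANKL gave a 1.71-fold rise (log2 0.77 ± 0.04 SE, adjusted p = 5.04e-08), which was under 1.5-fold with quantile normalization (log2 0.57), and the libraries with both agents lay between RANKL alone and the rest.

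Rpl23a (chr11:78180936-78183584, minus strand), which sits at the exit of the peptide tunnel, was at 419 and 354 FPKM untreated and 633 and 611 with RANKL. The rise was 1.61-fold (adjusted p = 9.78e-06), but was under 1.5-fold without untreated replicate 2 (log2 0.57) and, barely, under quantile normalization (log2 0.5849). Rps2 and Rps4l also passed at 1.73-fold (adjusted p = 0.00468) and 1.64-fold (adjusted p = 0.0126) on levels of only 2.49 to 7.01 and 0.790 to 3.18 FPKM. Each lost the call when 1 library was left out, Rps2 without RANKL replicate 2 (log2 0.50) and Rps4l without RANKL replicate 2 (log2 0.69) or untreated replicate 1 (log2 0.54).

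Rplp0, the base of the stalk and a common reference gene in quantitative PCR, was at 834 and 795 FPKM untreated and 1255 and 1266 with RANKL, a 1.55-fold rise (adjusted p = 5.11e-07). Rpl4, which lines the peptide tunnel, rose 1.56-fold (adjusted p = 4.79e-07), and Rps12 of the small subunit 1.56-fold (adjusted p = 5.44e-07). Rps6, the substrate of the S6 kinases downstream of mTORC1, was at 384 and 380.3 FPKM untreated and 575 and 552 with RANKL, a 1.47-fold rise (adjusted p = 1.23e-06). These 4 genes were chosen after their values were seen, for their level and their known roles.

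The smallest rises among members with a mean of at least 100 FPKM were those of Rps27l (1.13-fold, adjusted p = 0.0122) and Rpl10 (1.202-fold, adjusted p = 1.73e-04), the latter turning to log2 -0.06 under quantile normalization. Rpl39l was the only member with a lower mean under RANKL, at 0.380 and 0.838 FPKM untreated and 0.825 and 0.289 with RANKL, where the libraries overlapped (log2 -0.05, adjusted p = 0.86).

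**Figure D2:**
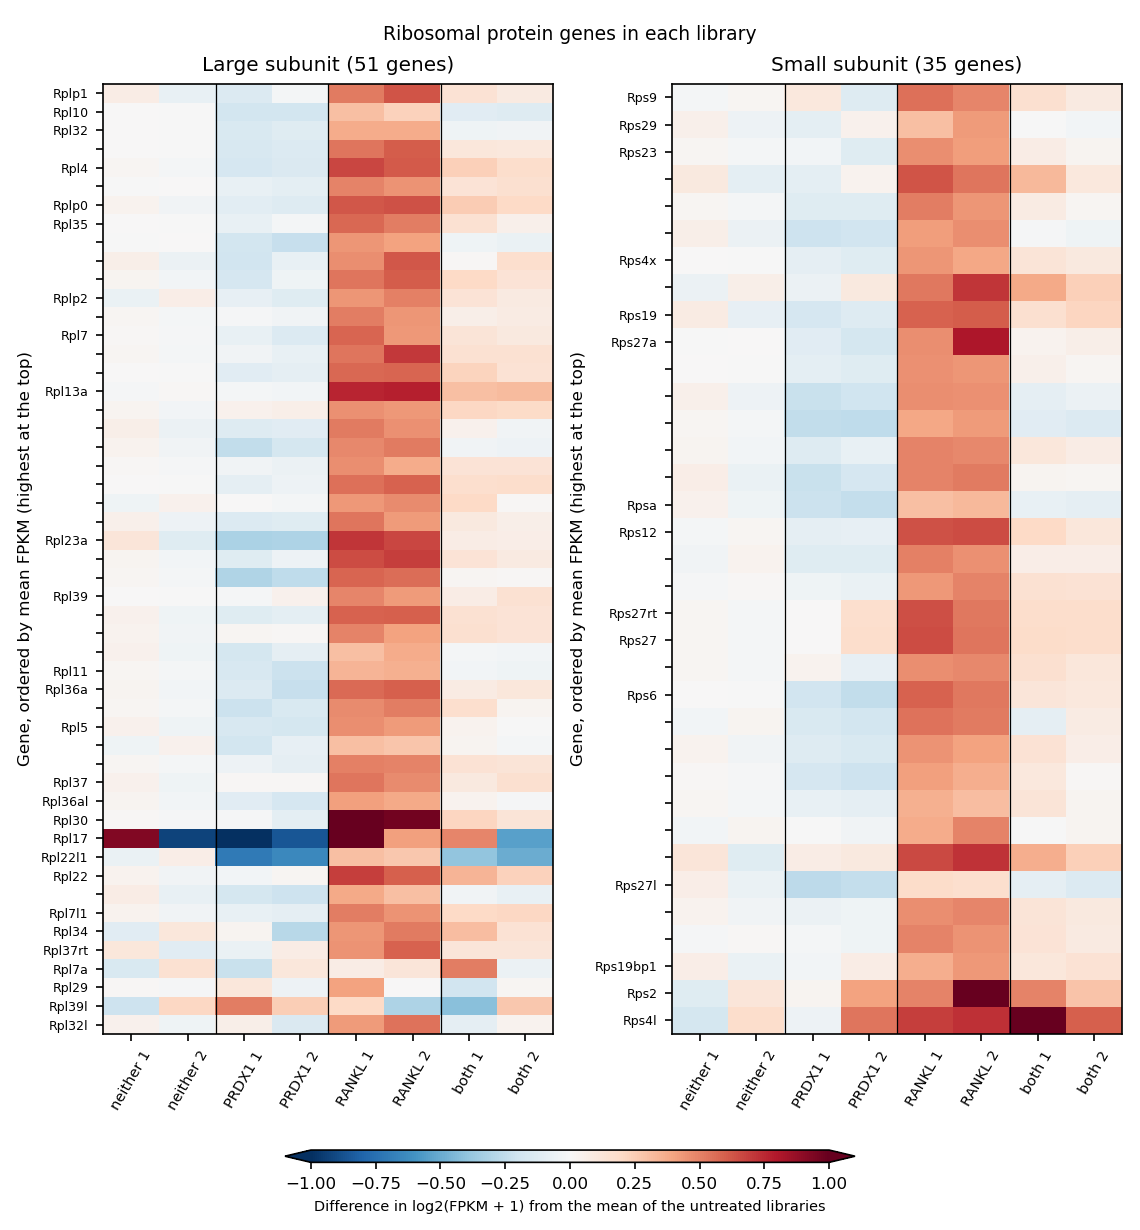
Difference in log2(FPKM + 1) of each member from the mean of the untreated libraries, in the 8 libraries (columns, 1 and 2 being the replicates), with genes in rows by subunit as their symbol gives it (Rps19bp1 included), names beside the rows of genes the text describes, and colours capped at 1. The RANKL columns were higher than the other 6 for 81 of the 86 genes, and Rpl17 and the lowest genes at the bottom were uneven between replicates.

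The next comparison was PRDX1 against no PRDX1 in the presence of RANKL, which asked how PRDX1 changed the members in cultures with RANKL. Here 79 members fell and none rose at an adjusted p under 0.05, where 25.6% of all genes fell and 16.9% rose. No member rose at an unadjusted p under 0.05 by limma or by limma-voom. The members' median log2 fold change was -0.40 (0.759-fold) against -0.06 for all genes, and the quartiles were -0.46 and -0.35. In 81 members both libraries with PRDX1 and RANKL were below both libraries with RANKL, a pattern of 43.1% of all genes, and in none were both above, as in 27.9% of all genes. The RANKL libraries are the baseline here and the treated side of the comparison above, so the 2 results share those libraries.

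Of the members that passed, 4 were past a 1.5-fold decrease, Rpl30, Rpl22l1, Rpl23a and Rps27a, against 4.17% of all genes, and none past a 1.5-fold rise, against 6.03%. Rpl30 fell to 0.552-fold (log2 -0.86 ± 0.06 SE, adjusted p = 1.66e-06) and Rpl22l1 to 0.603-fold (log2 -0.73 ± 0.06 SE, adjusted p = 6.08e-06). Rpl23a, at 406 and 404 FPKM with both agents, fell to 0.652-fold (adjusted p = 4.79e-05). Rps27a, which codes for ubiquitin fused to a small subunit protein, was at 867 and 1099 FPKM with RANKL and 644 and 654 with both, a change to 0.665-fold (adjusted p = 3.86e-04). Rpl23a and Rps27a were under 1.5-fold under each of the 4 other scalings. Rps27a was also under it without RANKL replicate 2 (log2 -0.42) or replicate 1 of the group with both agents (log2 -0.58). Rpl17 had the lowest value of all (log2 -0.95) but did not pass by limma (adjusted p = 0.181), and passed by limma-voom on recovered reads (log2 -0.87, adjusted p = 0.0369).

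Of the most abundant members, Rps9 was at 1615 and 1545 FPKM with RANKL and 1231 and 1172 with both (log2 -0.39, adjusted p = 0.00111). Rplp1 was at 1466 and 1575 FPKM with RANKL and 1128 and 1089 with both (log2 -0.45, adjusted p = 2.22e-04). Rpl10 was at 1213 and 1158 FPKM with RANKL and 910.4 and 901 with both (log2 -0.39, adjusted p = 2.61e-05), the latter below the 987 and 986 FPKM of the untreated libraries. The subunits again had close medians, -0.40 for the large and -0.39 for the small one.

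The members that did not pass were Rpl17, Rpl29, Rpl34, Rpl39l, Rpl7a, Rps2 and Rps4l. Means were higher with PRDX1 only in Rpl7a (12.7 and 13.2 FPKM with RANKL, 17.6 and 11.6 with both, adjusted p = 0.586) and Rps4l (2.26 and 2.34 FPKM against 3.18 and 2.06, adjusted p = 0.687), in both genes the libraries overlapped, and both values were below 0 without replicate 1 of the group with both agents (log2 -0.15 and -0.11).

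PRDX1 without RANKL gave a smaller difference. At an adjusted p under 0.05, 28 members fell and none rose, where 17.6% of all genes fell and 12.2% rose. At an unadjusted p under 0.05 none rose by limma, and Rps27 and Rps27rt did by limma-voom. The median log2 fold change was -0.10 (0.932-fold) against -0.04 for all genes, and -0.06 under the median ratio, upper quartile and voom scalings. Without untreated replicate 1 the members were -0.07 and all genes -0.04. The count of 28 was 13 without either PRDX1 library, 14 without untreated replicate 1, and 13 to 16 under 5 other settings of filter, trend or scaling, so that which members passed was not stable. Both PRDX1 libraries were below both untreated ones in 59 members and above them in 2, where 39.7% and 26.1% of all genes were. Both lay below all 6 others in 59 of the members, a pattern of 20.9% of all genes.

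Among the members that passed in that comparison, Rpl22l1 was the only one past 1.5-fold, as a decrease, against 1.99% of all genes that fell and 3.80% that rose so far. This gene (chr3:28805508-28807424, plus strand) codes for a paralog of Rpl22 that can take its place in the ribosome, and is known to rise where Rpl22 is lost. It was at 110.4 and 122 FPKM untreated, 70.7 and 73.7 with PRDX1, 143 and 139.7 with RANKL, and 87.8 and 82.0 with both. The PRDX1 libraries were low whether or not RANKL was present, with a decrease to 0.626-fold without RANKL (log2 -0.68 ± 0.06 SE, adjusted p = 2.20e-05).

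Its parent gene Rpl22 was at 88.1 and 84.1 FPKM untreated, 84.5 and 87.5 with PRDX1, 139 and 131 with RANKL, and 109 and 101 with both. Without RANKL its libraries overlapped (adjusted p = 0.982). Rpl22l1 was above Rpl22 in the untreated libraries, with 1.25 and 1.45 times its FPKM, about level with RANKL (1.03 and 1.07 times), and below it in all 4 libraries with PRDX1 (0.802 to 0.842 times).

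Of the 14 members with a value above 0 under PRDX1 alone, those furthest above it were Rpl39l (1.28 and 0.885 FPKM), Rps4l (0.950 and 1.93 FPKM) and Rps2 (2.87 and 4.03 FPKM), all with adjusted p of 0.287 or more. Rpl17 had the lowest value of all (0.524-fold) but did not pass (adjusted p = 0.228). Its libraries were at 165 and 45.1 FPKM untreated, 42.5 and 47.3 with PRDX1, 236 and 115 with RANKL, and 121 and 59.1 with both. Replicates of Rpl17 differed more than those of any other member above 20 FPKM, with a coefficient of variation of 80.8% in the untreated group, where the median member had 3.01%. Without untreated replicate 2 its decrease passed (log2 -1.86).

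**Figure D3:**
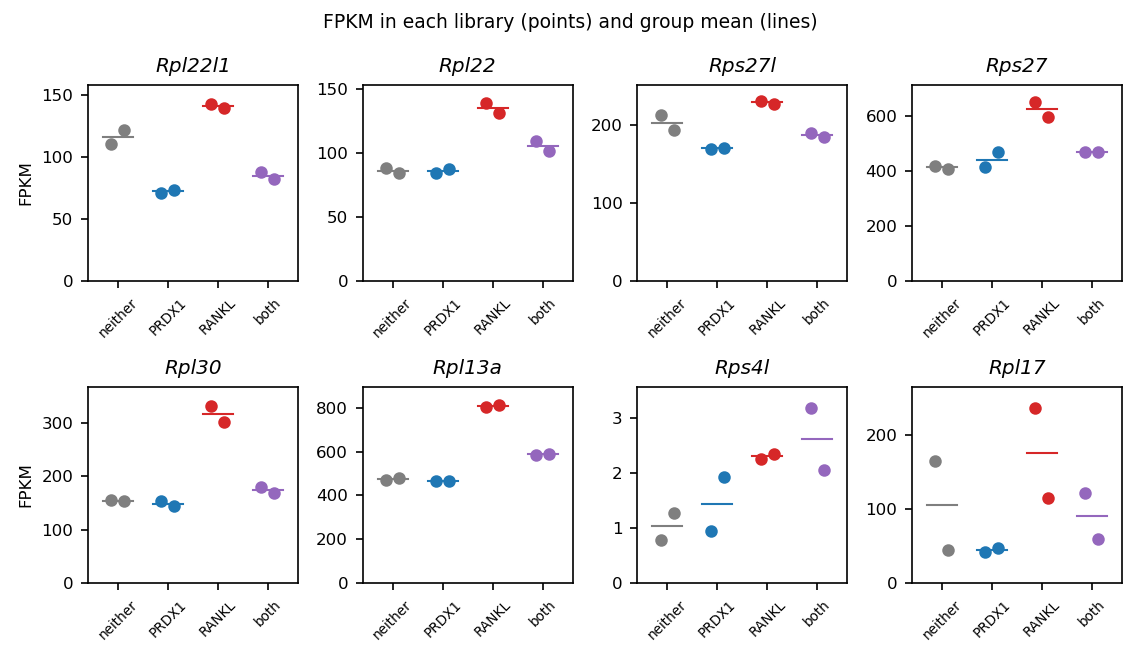
FPKM of 8 members in each library (points) with the group mean (lines), the groups being untreated (neither), PRDX1, RANKL and both, and each panel starting at 0. Rpl22l1 stood at 70.7 to 87.8 FPKM in the 4 libraries with PRDX1 and at 110.4 to 143 in the others, Rpl30 at 302 and 331 FPKM with RANKL alone and at most 179 elsewhere, and Rpl17 was uneven between replicates.

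RANKL was also compared with no RANKL among the cultures that had PRDX1. There 62 members rose and none fell at an adjusted p under 0.05, where 26.2% of all genes rose and 14.4% fell. At an unadjusted p under 0.05 none fell by limma, and Rpl39l did by limma-voom. Both libraries with RANKL were above both without it in 77 members and below them in none, where 47.3% and 27.0% of all genes were. The median log2 fold change was 0.19 (1.138-fold) against 0.07 for all genes, and 0.11 under the median ratio and voom scalings. No member that passed by limma was past 1.5-fold in either direction, where 4.52% of all genes had risen and 3.98% had fallen so far. Among those passing, Rpl23a rose 1.31-fold (adjusted p = 0.00122) and Rpl13a 1.26-fold (adjusted p = 6.55e-05). Rps4l was past it without replicate 2 of the PRDX1 group (log2 0.87) or of the group with both agents (log2 0.81). The largest absolute values belonged to Rpl17 (log2 0.90, adjusted p = 0.205), Rps4l (log2 0.58, adjusted p = 0.0454) and Rpl39l (log2 -0.45, adjusted p = 0.168), and besides Rpl39l only Rpl29 had a value under 0 (log2 -0.12, adjusted p = 0.546). The count of 62 was 29 without replicate 1 of the group with both agents, 39 and 37 without the PRDX1 libraries in turn, and 24 to 38 under 4 other settings.

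The members' difference between cultures with both agents and untreated ones was small. At an adjusted p under 0.05, 29 members were higher and 3 lower, where 24.7% of all genes were higher and 19.5% lower. By limma-voom on recovered reads 15 members were higher and 4 lower, and other scalings also moved these counts. Both libraries with both agents were above both untreated ones in 55 members and below them in 9, where 41.6% and 33.0% of all genes were. The median log2 fold change was 0.11 against 0.03. Rps4l was the only member that passed and was past 1.5-fold (log2 0.83, adjusted p = 0.00854), where 7.50% of all genes were higher and 5.34% lower by that much. It was no longer past both thresholds, though still past 1.5-fold, without replicate 1 of the group with both agents (log2 0.60) or untreated replicate 1 (log2 0.65). Those that were lower included Rpl22l1 (0.734-fold, adjusted p = 1.58e-04) and Rpl10 (0.919-fold, adjusted p = 0.025). The count of 29 was 9 to 19 without either library with both agents or either untreated library.

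The difference between the 2 effects of PRDX1 was tested as an interaction, which is the change by PRDX1 with RANKL minus that without RANKL. It was below 0 and passed in 66 members and was above 0 in none that passed, where 12.0% of all genes passed below 0 and 11.2% above. None was above 0 at an unadjusted p under 0.05 by limma or by limma-voom. The members' median was -0.30 against -0.01 for all genes. Under quantile normalization 27 members passed and the median was -0.16. Of the members that passed, only Rpl30 was past 1.5-fold (log2 -0.81 ± 0.08 SE, adjusted p = 7.48e-05), against 4.35% of all genes below 0 and 4.50% above. Rps2 (log2 -0.61, adjusted p = 0.133) and Rps27 (log2 -0.50, adjusted p = 0.00236) came next.

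In Rpl22l1 the interaction was -0.05 ± 0.08 (log2, SE, adjusted p = 0.705) and in Rps27l -0.04 ± 0.07 (adjusted p = 0.75). Rps27l, a paralog of Rps27 whose gene responds to p53, was at 212 and 193 FPKM untreated, 169 and 171 with PRDX1, 229.7 and 227 with RANKL, and 189 and 184 with both. It fell with PRDX1 without RANKL (0.841-fold, adjusted p = 0.00447) and with it (0.818-fold, adjusted p = 0.00112). Rpl7a was the only member with an interaction above 0 (log2 0.18, adjusted p = 0.662).

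**Figure D4:**
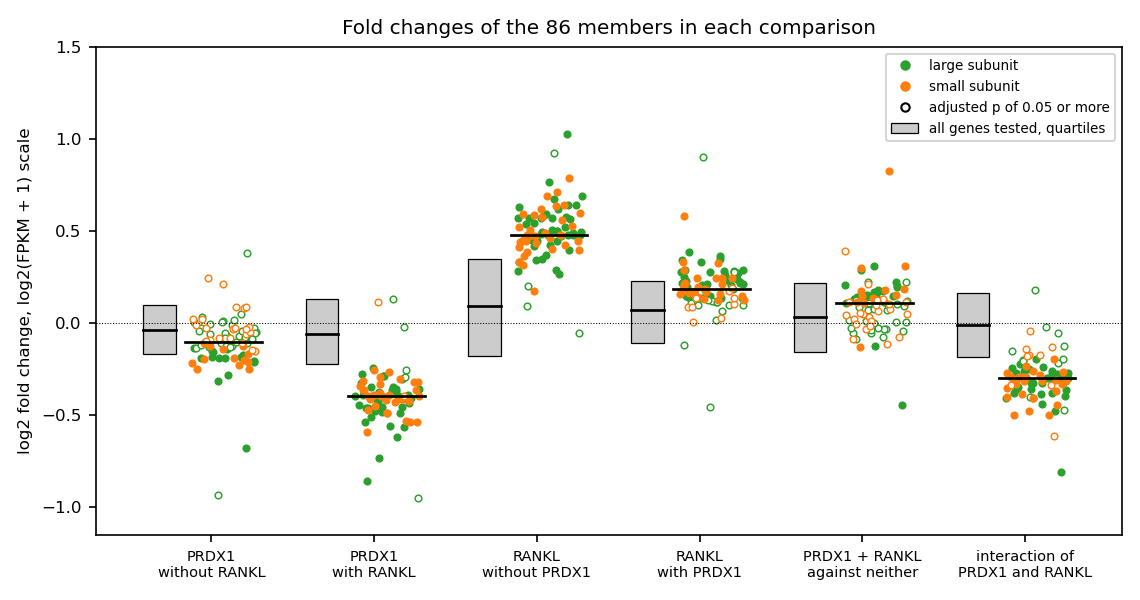
Log2 fold change of each of the 86 members (points, green for the large and orange for the small subunit, filled where the adjusted p was under 0.05) in the 5 comparisons and the interaction, with the members' median as a line and the median and quartiles of all 11700 genes as a grey box. The medians of the members were -0.10, -0.40, 0.48, 0.19, 0.11 and -0.30 from left to right.

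Rpl36al was at 180.0 to 269.6 FPKM and had 0.553 to 0.670 times the FPKM of Rpl36a in every library, rising 1.32-fold with RANKL (adjusted p = 2.71e-05). Rpl7l1, a protein of early large subunit assembly, was at 46.2 to 70.5 FPKM, or 0.0710 to 0.0801 times Rpl7, and rose 1.39-fold (adjusted p = 1.52e-05). Rps27rt had 1.01 times the FPKM of Rps27 in all 8 libraries and the table places both at the same locus on chromosome 3, with 981 shared bases. They may count the same reads, though each is among the 86 members and in the counts above, and without Rps27rt the share of reads was 4.61% with RANKL and 2.95% with PRDX1.

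Rpl39l and Rps4l were at a small fraction of their parents. Rpl39l, a protein of the testis, had at most 0.00358 times the FPKM of Rpl39, with 7 to 32 reads a library. Rps4l, which RefSeq lists as a non-coding transcript, had at most 0.00410 times that of Rps4x. Rpl32l and Rpl37rt, whose names also mark copies and which were added after their values were seen, had at most 0.00101 and 0.144 times the FPKM of Rpl32 and Rpl37. Rps19bp1, the member that is no ribosomal protein, was at 27.2 and 24.9 FPKM untreated, 25.5 and 27.5 with PRDX1, 33.7 and 35.4 with RANKL, and 28.2 and 28.9 with both (RANKL without PRDX1, log2 0.40, adjusted p = 3.74e-04).

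Outside the members, Fau, which codes for a small subunit protein fused to a ubiquitin-like one, was at 668 and 633 FPKM untreated, 681 and 652 with PRDX1, 859 and 905 with RANKL, and 735 and 726 with both. It rose with RANKL without PRDX1 (log2 0.44, adjusted p = 1.53e-05) and fell with PRDX1 in its presence (log2 -0.27, adjusted p = 8.68e-04). Rpl34-ps1, a table row that shares its locus with Rpl34, rose with RANKL (log2 0.48, adjusted p = 0.00284) and had log2 -0.25 with PRDX1 in its presence (adjusted p = 0.0839).

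Ribosomal proteins of mitochondria, 78 genes that make a separate ribosome for the mitochondrial genome, are given for comparison. With RANKL 69 of them rose and 1 fell (median log2 0.43), beside 37.0% and 22.9% of all genes. With PRDX1 in the presence of RANKL 68 fell and none rose (median log2 -0.34), beside 25.6% and 16.9% of all genes. Their interaction had a median of -0.28, with 34 of 78 passing below 0, beside 12.0% of all genes. The same medians for the cytosolic members were 0.48, -0.40 and -0.30, and no difference between the sets was tested.

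Elongation factors and other mRNAs with a TOP start (16 genes tested) all rose with RANKL without PRDX1 (median log2 0.47), as 37.0% of all genes did, and all fell with PRDX1 in its presence (median log2 -0.28), as 25.6% of all genes did. Eef1b2, an exchange factor of elongation factor 1, rose by log2 0.72 and fell by 0.46 on the log2 scale, Naca, which binds new peptides at the ribosome, rose by log2 0.50 and fell by 0.45, and Eef1d rose by log2 0.68 and fell by 0.40. Of 35 initiation factors 29 rose and 1 fell with RANKL (median log2 0.36, with 37.0% and 22.9% for all genes), and 24 (of all genes, 25.6%) fell with PRDX1 in its presence (median log2 -0.22), among them Eif2b3 (log2 -0.52), Eif2b1 (log2 -0.48) and Eif3l (log2 -0.40).

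Of 95 genes of RNA polymerase I and ribosome biogenesis, 88 rose and none fell with RANKL (median log2 0.50), beside 37.0% and 22.9% of all genes. With PRDX1 in its presence 45 fell and 1 rose (median log2 -0.19), beside 25.6% and 16.9%. Those that passed and were past a 1.5-fold decrease were Nop10, a part of the snoRNA particles that modify uridines (log2 -0.66, adjusted p = 3.10e-06), Polr1d, a subunit of RNA polymerases I and III (log2 -0.66, adjusted p = 7.38e-06), and Imp3 of early 18S rRNA processing (log2 -0.64, adjusted p = 2.91e-04). Of 9 escort proteins that chaperone single ribosomal proteins, 7 rose with RANKL (37.0% of all genes) and 6 fell with PRDX1 in its presence (25.6% of all genes), led by Ltv1 (log2 -0.33), Heatr3 (log2 -0.27) and Aamp (log2 -0.26). The lists overlap, since Ltv1, Grwd1 and Tsr2 are also in the biogenesis list and Nap1l1 in the list of TOP mRNAs.

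Of 15 host genes of snoRNAs outside the members, 13 rose with RANKL without PRDX1 (median log2 0.65), beside 37.0% of all genes, but 3 fell and 1 rose with PRDX1 in its presence (median log2 -0.03), where 25.6% of all genes fell and 16.9% rose. With PRDX1 without RANKL 6 rose and 1 fell (median log2 0.17), where 12.2% of all genes rose and 17.6% fell. Those with the largest values under PRDX1 with RANKL were Snhg20 (log2 -0.66), Snhg7 (log2 -0.65) and Snhg4 (log2 -0.47).

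Among 29 genes of mTORC1, MYC and the control of TOP mRNA, 13 rose and 2 fell with RANKL (median log2 0.17), where 37.0% and 22.9% of all genes did. With PRDX1 in its presence 7 fell and none rose (median log2 -0.07), the decreases being near the 25.6% of all genes. Mycl, a relative of Myc, was at 0, 0.094, 0.058 and 0.146 FPKM in the 4 libraries without RANKL, 4.95 and 4.87 FPKM with RANKL, and 2.06 and 2.11 with both (PRDX1 with RANKL, log2 -0.94, adjusted p = 5.10e-05). Eif4ebp2, an inhibitor of cap-dependent translation (log2 -0.44, adjusted p = 2.58e-04), and Mxd4, an antagonist of MYC (log2 -0.43, adjusted p = 0.00156), followed. Myc, Larp1 and Mtor were chosen later for their roles. Myc had log2 1.09 with RANKL without PRDX1, but -0.12 with PRDX1 in the presence of RANKL (adjusted p = 0.163). In the latter comparison Larp1 had log2 0.02 (adjusted p = 0.869) and Mtor log2 0.06 (adjusted p = 0.628).

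Ribosomal proteins that are free of the ribosome, Rpl5 and Rpl11 above all, can bind Mdm2 and so stabilise p53. Rpl5 was at 299 and 282 FPKM untreated, 260.0 and 257 with PRDX1, 402 and 391 with RANKL, and 298 and 290.0 with both. Of 11 genes of ribosomal stress and p53, 2 rose and 5 fell with RANKL without PRDX1, where 37.0% and 22.9% of all genes did. With PRDX1 in its presence 3 rose and 4 fell (median log2 0.00), where 16.9% and 25.6% of all genes did. With PRDX1 without RANKL 1 rose and 6 fell (median log2 -0.33), where 12.2% and 17.6% of all genes did. With both agents against neither 2 were higher and 7 lower (median log2 -0.33), beside 24.7% and 19.5% of all genes. The 3 that rose with PRDX1 in the presence of RANKL were Mdm2 (log2 0.56, adjusted p = 1.14e-05), Sesn2 (log2 0.55, adjusted p = 5.02e-04) and Cdkn1a (log2 0.52, adjusted p = 2.09e-05). Cdkn1a was at 149 and 153 FPKM untreated, 141 and 148 with PRDX1, 85.2 and 87.5 with RANKL, and 119.9 and 128 with both. Mdm2 was at 40.9 and 40.3 FPKM untreated, 56.6 and 56.5 with PRDX1, 58.2 and 54.6 with RANKL, and 84.3 and 83.0 with both, and the 2 genes of the list that rose with RANKL without PRDX1 were Mdm2 (log2 0.46) and Trp53 (log2 0.80).

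**Figure D5:**
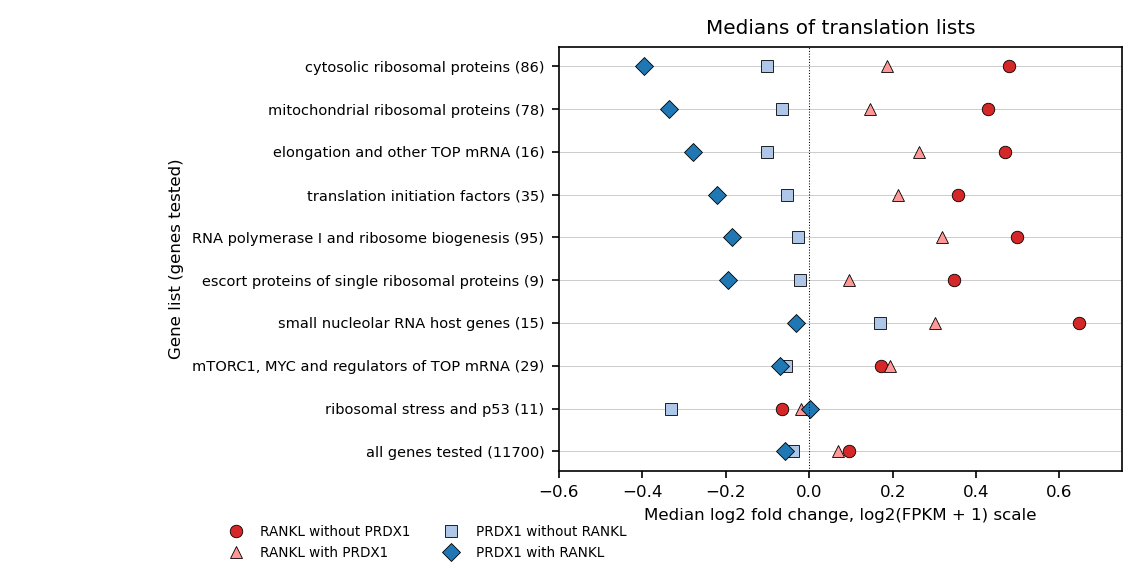
Median log2 fold change of the ribosomal protein genes and of lists of related genes (rows, with the number of genes tested) in 4 comparisons (symbols), with all genes tested in the last row. With RANKL without PRDX1 the medians were 0.48 for the cytosolic ribosomal proteins, 0.43 for the mitochondrial ones and 0.50 for ribosome biogenesis against 0.10 for all genes.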

How the data were processed

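RNA-seq of 8 cultures in 4 groups of 2 was analysed from 1 table of FPKM. The authors aligned reads with HISAT2 and counted them on RefSeq exons of mm10 with HOMER, on both strands and with 1 transcript per gene, and deposited FPKM, per the labels and the study's methods. Their notes also name DESeq2, and versions are not given in the sources used here. Deposited FPKM times length came out as whole reads in 100% of the checked genes of every library, so read counts could be recovered. The tolerance was 0.05 plus the rounding error of the deposited values. In each library 3263 to 5499 genes were checked, all with few reads, and most members had more reads than these. Reads were counted without strand, so overlapping genes can share them.

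Log2(FPKM + 1) was fitted with limma 3.58.1 in R 4.3.3, as 1 model with a mean per group and a variance that could depend on level, over 11700 genes with a mean of at least 0.5 FPKM. P-values were adjusted by Benjamini-Hochberg over all of them, and genes were counted at an adjusted p under 0.05, alone (a count added after the data were seen) and with a fold change of at least 1.5. No test was run over a list, and some genes are shared between lists. The fit was tested on simulated counts with the same spread for every gene and few changed genes. That does not show how its p-values behave in these libraries. Members and lists were chosen with earlier results of these data known. Genes named were the largest changes and those against the median in each comparison, the highest and lowest levels, paralogs, and up to 3 per list by the change under PRDX1 with RANKL, besides those said to be chosen later. Alternatives were another pseudocount, 2 filters, 4 scalings (quantile, upper quartile, the median ratio over genes that are not members, and limma-voom on recovered reads with TMM), no trend, a replicate block and leaving out each library. Sequences were taken from RefSeq tables of GRCm38.p6, proteins were not analysed here, and some named items and 1 alternative set of members are not reported here.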

Additional observations from a re-analysis of the deposited data

Results flagged for a closer look

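The effect of PRDX1 on Rpl30 differed between cultures with and without RANKL by the test of the interaction (log2 -0.805, adjusted p = 7.48e-05 by limma). PRDX1 gave log2 -0.05 without RANKL and -0.86 with it. Reads of Rpl30 may be shared with the row Gm12191 at the same locus.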

How the results depend on the processing

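No median of the members changed sign under any alternative. Values of single members under the alternatives were taken only for members picked by the naming rule above. Sign changes of the other members were not counted. Among the picked members, Rpl10 changed sign under quantile normalization for RANKL without PRDX1 (log2 -0.0555) and in the interaction (log2 0.0373). The other 77 sign changes among these members passed the adjusted p in neither fit. An example is Rpl7a for PRDX1 with RANKL without replicate 1 of the group with both agents (log2 -0.15). When libraries were left out singly, the medians ranged from -0.11 to -0.07 (PRDX1 without RANKL), -0.41 to -0.38 (PRDX1 with RANKL), 0.46 to 0.51 (RANKL without PRDX1), 0.17 to 0.21 (RANKL with PRDX1), 0.08 to 0.13 (both against neither) and -0.32 to -0.28 (interaction). Scaling moved sizes. For PRDX1 without RANKL the median was -0.06 under the median ratio, upper quartile and voom, and for both against neither 0.07 under the median ratio, quantile and voom. For PRDX1 with RANKL the median was -0.33 (median ratio), -0.28 (quantile), -0.35 (upper quartile) and -0.34 (voom), with 2 members past 1.5-fold under the median ratio and the upper quartile. For RANKL without PRDX1 it was 0.38, 0.35, 0.41 and 0.39 with 6, 4, 7 and 7 past 1.5-fold, in the same order. For RANKL with PRDX1 it was 0.11 (median ratio), 0.13 (upper quartile) and 0.11 (voom, with 1 member past 1.5-fold in each direction), and for the interaction -0.16 (quantile). The cause of these shifts was not tested.

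Counts at an adjusted p under 0.05 moved more. For PRDX1 without RANKL they were 16 lower under the median ratio, no filter and the upper quartile, 15 under voom and 13 without the trend, and 13 to 33 with a library left out (1 to 2 past 1.5-fold). For RANKL with PRDX1 they were 24 higher under the median ratio, 38 without the trend, 36 under the upper quartile and 29 under voom (with 1 lower). With a library left out they were 29 to 66 higher and 0 to 1 lower, and 0 to 1 past 1.5-fold in each direction. For both against neither they were 14 higher and 5 lower (median ratio), 17 and 1 (no filter), 11 and 1 (no trend), 9 lower (quantile), 19 higher (upper quartile) and 15 higher (voom). Left-out libraries gave 9 to 34 higher and 1 to 3 lower, with 0 to 1 past 1.5-fold. For the interaction they were 42 lower without the trend and 27 under quantile normalization, and left-out libraries gave 46 to 64, of which 1 to 3 were past 1.5-fold. Left-out libraries gave 77 to 80 lower for PRDX1 with RANKL and 81 to 82 higher for RANKL without PRDX1, with 13 to 24 past 1.5-fold.

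The share of reads without the 10 most abundant genes was 3.52% untreated, 3.29% with PRDX1, 4.86% with RANKL and 3.73% with both. Without Rps27rt it was 2.95% with PRDX1.

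The labels share replicate numbers only as numbers, and correlations of replicate differences were 0.00847 to 0.0965 across all genes and -0.505 to 0.582 across the members, so that the cultures were not taken as pairs. The count with a replicate block was 79 lower for PRDX1 with RANKL and 83 higher for RANKL without PRDX1. Rpl17 then passed for RANKL without PRDX1 (log2 0.92), a value that was 1.85 without untreated replicate 1 and -0.00318 without untreated replicate 2. The block moved no other count of calls past 1.5 times.

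With 2 cultures a group and 4 residual degrees of freedom, small changes of low members could not be resolved.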
